A study of Mus musculus with 27 samples.

Results

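T cells carry an antigen receptor on their surface that no other blood cell makes, and 10 genes that encode this receptor and its closest partners were measured by RNA-seq in the contralateral hippocampus and cortex of mice after intraventricular antibody infusion. The 10 genes are Cd3d, Cd3e, Cd3g, Cd4, Cd8a, Cd8b1, Lck, Trac, Trbc2 and Il2rb. They were found as the rows of the deposited count matrix whose Ensembl identifier carries one of these symbols in the mouse annotation, and they are 10 of its 55487 genes. All 27 libraries were used.

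Male wild-type C57Bl/6J mice, 8 weeks old, received an infusion into the right lateral ventricle for 14 days at 0.25 μl/h. The infusate was α-IgLON5#1 (polyclonal antibodies specific for IgLON5, isolated from the plasma of a single patient), pCtrl, a control human IgG, or PBS alone. The sample labels describe pCtrl as a non-reactive human monoclonal IgG and the paper as IgG from serum, so that its origin cannot be settled here. The groups were PBS (n = 5 hippocampi and 5 cortices), pCtrl (n = 4 hippocampi and 5 cortices) and α-IgLON5#1 (n = 4 hippocampi and 4 cortices) from 14 mice, each of which gave at most 1 library a tissue. Both IgG preparations were human proteins, and all groups were infused. All α-IgLON5#1 mice bear the numbers 8, 9, 16 and 17, while pCtrl and PBS mice bear numbers from 10 to 75.

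The libraries held 19385642 to 58550621 counts. All α-IgLON5#1 hippocampi (19428512 to 32776892 counts) were shallower than all pCtrl hippocampi (39479753 to 52212204), so that 1 count was worth 0.0287 to 0.0563 CPM (the count scaled to a common library size) in the former and 0.0188 to 0.0246 CPM in the latter. The labels name the cell type as neurons, but the samples are dissected tissue: neuronal markers summed to 4619 to 7061 CPM, and glial markers were present throughout. Hippocampal markers summed to 106 to 446 CPM in hippocampi and 17.9 to 30.8 CPM in cortices. The pCtrl hippocampi of mice 37 (106 CPM) and 10 (160 CPM) had the lowest sums of all hippocampi and also the highest sums of cortical markers (192 and 163 CPM), against 89.3 to 146 CPM of cortical markers in the other hippocampi. Each call of a member against the pCtrl hippocampi is therefore also given without these libraries.

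The αβ T cell receptor is a heterodimer whose α and β chains end in constant regions encoded by Trac and by Trbc1 or Trbc2. It does not signal by itself and is held at the membrane by the CD3 chains γ, δ and ε (Cd3g, Cd3d, Cd3e), whose cytoplasmic motifs are phosphorylated by the kinase Lck. The coreceptors CD4 and CD8 (a dimer of the products of Cd8a and Cd8b1) bind MHC class II and class I molecules, bring Lck to the receptor and divide T cells into helper and cytotoxic lineages. Il2rb encodes the β chain shared by the receptors for interleukin-2 and interleukin-15, which effector and memory T cells carry, as do natural killer (NK) cells. The healthy brain parenchyma holds few T cells, most of them at its borders.

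The CD3 genes lie next to each other on chromosome 9. In GRCm38, Cd3g (ENSMUSG00000002033.14, chr9:44969572-44980431, minus strand) and Cd3d (ENSMUSG00000032094.8, chr9:44981786-44987339, plus strand) are transcribed away from each other and are separated by 1355 bases, and Cd3e (ENSMUSG00000032093.7, chr9:44998740-45009627, minus strand) follows. Because the neighbouring genes are described together below, the 250 bases before the RefSeq start (GRCm38.p6) of each are shown, read in the direction of transcription. They cover chr9:44980432-44980681 (minus strand) for Cd3g, chr9:44981536-44981785 (plus strand) for Cd3d and chr9:45009612-45009861 (minus strand) for Cd3e, and capitals mark matches to the motifs searched.
Cd3g: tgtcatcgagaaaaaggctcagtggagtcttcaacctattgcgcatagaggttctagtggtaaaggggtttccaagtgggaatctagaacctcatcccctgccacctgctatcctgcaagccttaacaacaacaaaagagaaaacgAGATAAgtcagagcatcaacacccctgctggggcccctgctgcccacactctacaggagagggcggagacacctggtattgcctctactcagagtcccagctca
Cd3d: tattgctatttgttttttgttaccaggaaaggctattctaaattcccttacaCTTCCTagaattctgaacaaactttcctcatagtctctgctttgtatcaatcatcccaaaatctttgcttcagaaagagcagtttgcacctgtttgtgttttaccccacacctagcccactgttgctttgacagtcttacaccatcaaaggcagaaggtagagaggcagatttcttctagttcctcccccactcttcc
Cd3e: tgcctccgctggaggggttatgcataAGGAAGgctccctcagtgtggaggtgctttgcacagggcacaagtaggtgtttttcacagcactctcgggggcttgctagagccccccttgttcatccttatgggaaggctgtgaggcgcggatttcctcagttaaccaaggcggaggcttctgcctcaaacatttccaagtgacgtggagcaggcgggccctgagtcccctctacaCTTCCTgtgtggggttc
All motifs were searched on both strands, and none of the matches shown overlapped another. The GATA motif, searched as AGATAA, began 104 bases before the start of Cd3g and is present in 9.99% of 32851 promoter windows of the same length. The ETS motif was searched as AGGAAG, and CGGAAG was counted equally. The Cd3d window held 1 ETS match, 198 bases before the start, and the Cd3e window 2, at 224 and 17 bases, against 39.2% of all windows with at least 1. The RUNX motif, searched as TGTGGT, was in none of the windows shown and in 14.0% of all. The TATA box, searched as TATAAA, was likewise in none of them and in 12.4% of all. RefSeq promoters were matched for 5 of the 10 genes, and those of Cd4, Cd8b1, Trac, Trbc2 and Il2rb are not shown.

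Most of the 10 genes were rare transcripts. A gene was tested when at least 4 libraries held at least 10 counts, which 6 of the 10 passed (Cd3g, Cd4, Lck, Trac, Trbc2, Il2rb). Cd3g did so with exactly 4 libraries, 3 of them from α-IgLON5#1 mice, so that it could enter the test only by being high in that group. Cd3d (52 counts over all libraries), Cd3e (132), Cd8a (59) and Cd8b1 (36) were not tested and are given as counts. Below, a gene is said to rise or fall where edgeR's quasi-likelihood test gave an adjusted p under 0.05 over all 20271 tested genes and a fold change above 2. Since these are bulk tissues, fewer cells of a type and less RNA per cell cannot be told apart.

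In the hippocampus, Cd4 and Il2rb rose with α-IgLON5#1 against pCtrl, and Cd3g, Cd4 and Il2rb rose against PBS. In the cortex, Cd3g and Il2rb rose against either control. The background share of tested genes that rose was 2.21% for hippocampus against pCtrl, 2.56% for hippocampus against PBS, 2.14% for cortex against pCtrl and 2.24% for cortex against PBS. Of the 5 tested members other than Cd3g, 2, 2, 1 and 1 rose in the same order. Cd3g, which owes its place in the test to the α-IgLON5#1 libraries, is not counted there and is also given below from a fit of all 40544 genes with any count. In that fit 1.25%, 1.47%, 1.26% and 1.3% of genes rose. None of the 6 fell with α-IgLON5#1 in either tissue (backgrounds 0.237%, 0.109%, 0.0247% and 0.00493%). The comparisons of α-IgLON5#1 with pCtrl and with PBS share the α-IgLON5#1 libraries.

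**Figure D1:**
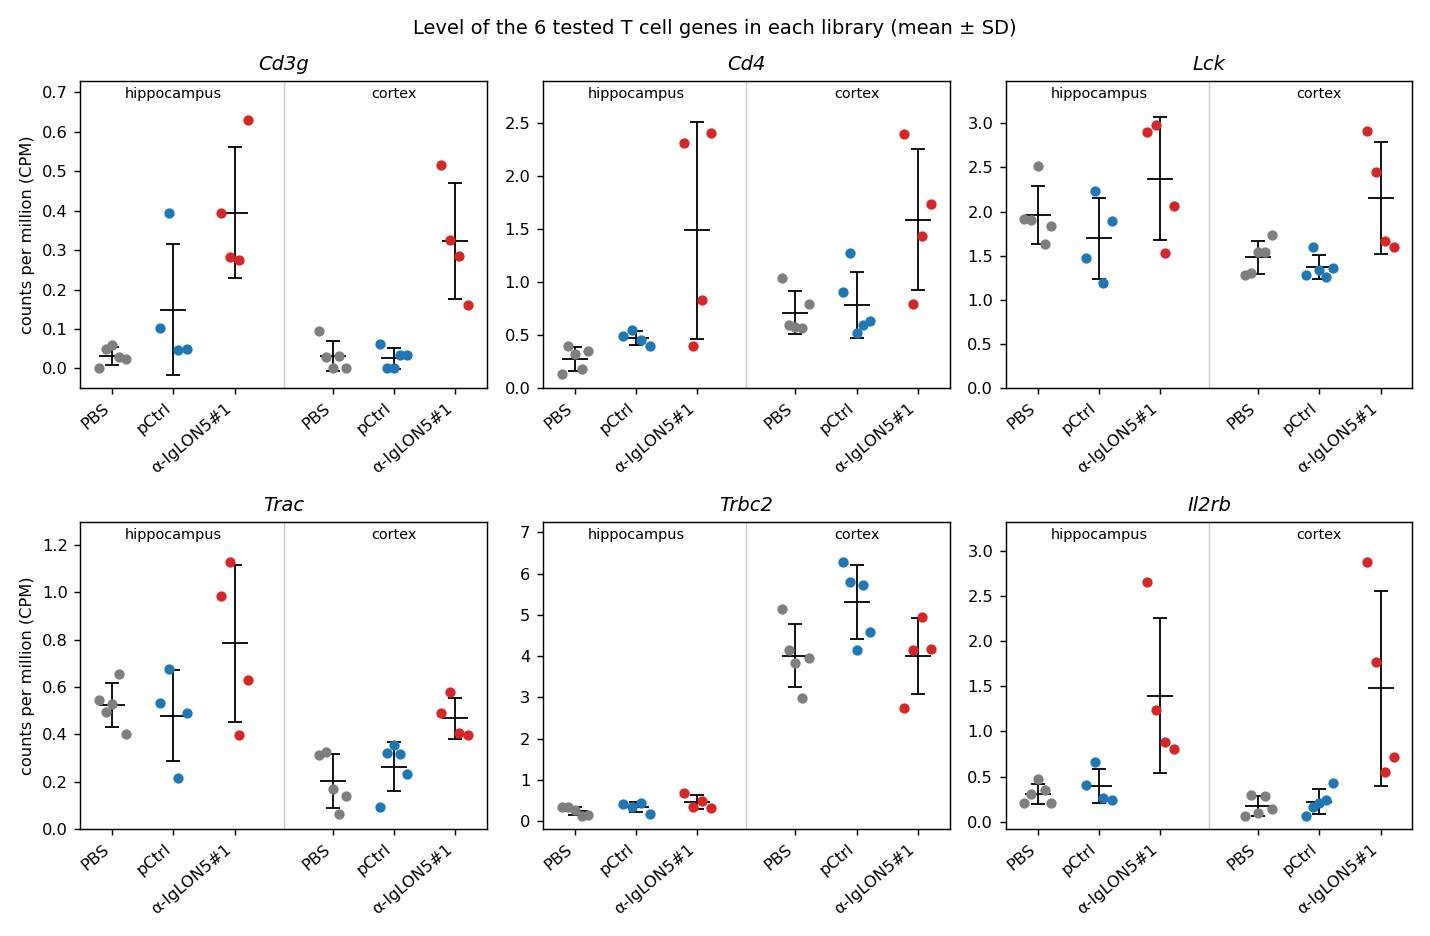
Level in CPM (linear axis) of the 6 tested genes in each library, grouped by tissue and infusate, with bars for the mean ± SD. Il2rb of every α-IgLON5#1 library lies above all controls of its tissue, whereas Trbc2 differs between cortex and hippocampus.

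Among the signalling chains of the receptor, Cd3g rose in the cortex, in the fit without the count filter (log2 fold change 3.44 ± 0.74, SE, against pCtrl, adjusted p = 0.00492, and 3.25 ± 0.70 against PBS, adjusted p = 0.00487, edgeR) as in the filtered one. Its level was 0.516, 0.325, 0.286 and 0.161 CPM (19, 9, 12 and 9 counts) in α-IgLON5#1 mice 8, 9, 16 and 17. The pCtrl cortices held 0 to 2 counts each (0 to 0.0626 CPM) and the PBS cortices 0 to 3 counts (0 to 0.0939 CPM). All α-IgLON5#1 cortices were therefore above all control cortices, as were 3.68% of tested genes against pCtrl and 3.14% against PBS. In the filtered fit the log2 fold change was 3.41 ± 0.75 against pCtrl (adjusted p = 0.00683, edgeR) and 3.22 ± 0.71 against PBS (adjusted p = 0.0063). Since the control cortices hold 4 and 5 counts in all, the size of this fold is loose: pooled counts gave an 11.5-fold ratio to pCtrl with an exact 95% interval from 4.20 to 43.7, which covers counting error only. Among mice numbered 8 to 17, which leaves 3 pCtrl cortices, the difference was 3.67 and did not pass (adjusted p = 0.133, edgeR).

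In the hippocampus Cd3g was 0.394, 0.282, 0.276 and 0.630 CPM (8, 5, 9 and 22 counts) in mice 8, 9, 16 and 17, and 0 to 0.0586 CPM in the PBS group. It rose against PBS, by 3.43 ± 0.67 on the log2 scale (adjusted p = 0.00126, edgeR) and by 3.40 ± 0.66 without the count filter (adjusted p = 0.00128). Among the pCtrl hippocampi, mouse 15 held 0.395 CPM (21 counts), inside the α-IgLON5#1 range, while mice 10, 37 and 75 held 0.102, 0.0476 and 0.0491 CPM. The difference from pCtrl was 1.36 ± 0.55 (adjusted p = 0.138, edgeR), and without mouse 15 it was 2.52 (adjusted p = 0.00765). Without that library only 3 libraries, all α-IgLON5#1, held 10 counts of Cd3g, so that the gene would not pass the count filter. In a fit without mouse 15 and without the filter the difference was 2.49 ± 0.62 (adjusted p = 0.0154, edgeR), a setting chosen after seeing the data. Without pCtrl mice 10 and 37 it was 0.79 (adjusted p = 0.725, edgeR). The difference in effect between the tissues was -2.05 ± 0.97 against pCtrl (hippocampus minus cortex) and did not pass the test (adjusted p = 0.456, edgeR).

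The δ and ε chains were too rare to test. Cd3d had 8, 3, 2 and 5 counts in the hippocampi of α-IgLON5#1 mice 8, 9, 16 and 17 and 5, 9, 2 and 5 in their cortices, against at most 1 count in each PBS library and at most 4 in each pCtrl library. The pooled ratio of Cd3d to PBS was 17.1 in the hippocampus (18 against 2 counts, exact 95% interval 4.09 to 152) and 10.6 in the cortex (21 against 2 counts, interval 2.59 to 93.1). To pCtrl it was 5.25 (interval 2.0 to 16.2) and 6.55 (interval 1.95 to 34.3). Of the 6 counts in pCtrl hippocampi, 4 were from mouse 15. In a fit without the count filter, Cd3d was the only untested gene of the 4 to be called, in hippocampus against PBS (log2 fold change 3.76 ± 0.93, adjusted p = 0.0168, edgeR), with 1.47% of all genes called higher there.

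Cd3e, which overlaps an annotated antisense gene, held 4 to 11 counts in α-IgLON5#1 hippocampi (0.201 to 0.394 CPM). The deeper pCtrl hippocampi held 4 to 12 counts (0.0817 to 0.226 CPM) and the PBS hippocampi 2 to 7 (0.0682 to 0.119 CPM). In CPM the α-IgLON5#1 group thus overlapped pCtrl but lay above PBS, as did 4.49% of tested genes. In the cortex it held 2 to 14 counts with α-IgLON5#1 (0.0722 to 0.380 CPM), inside the range of pCtrl and PBS at its lower end (0 to 0.118 and 0 to 0.158 CPM). The pooled ratio to pCtrl was 1.95 in the hippocampus (interval 1.12 to 3.40) and 2.37 in the cortex (interval 1.22 to 4.91). To PBS it was 2.85 (interval 1.57 to 5.29) and 3.70 (interval 1.73 to 8.78). In the fit without the count filter Cd3e was not called in the hippocampus (adjusted p = 0.51 against pCtrl and 0.256 against PBS, edgeR). Nor was it in the cortex (adjusted p = 0.525 and 0.245, edgeR).

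Added over the CD3 chains, the counts give each library a single value. In the cortex the sum was 38, 20, 22 and 23 counts in α-IgLON5#1 mice 8, 9, 16 and 17 (0.673 ± 0.272 CPM, SD, n = 4). It was 1 to 7 counts in pCtrl (0.123 ± 0.042 CPM, n = 5) and 0 to 7 in PBS cortices (0.0967 ± 0.0811 CPM, n = 5). In the hippocampus it was 0.876 ± 0.247 CPM with α-IgLON5#1 (n = 4), 0.323 ± 0.249 CPM with pCtrl (n = 4) and 0.138 ± 0.047 CPM with PBS (n = 5). The α-IgLON5#1 cortices did not overlap either control group, whereas in the hippocampus pCtrl mouse 15 (0.696 CPM) exceeded α-IgLON5#1 mice 9 and 16 (0.676 and 0.674 CPM). In the cortex, 3.68% of single tested genes lay above all pCtrl and 3.14% above all PBS libraries. Of the 103 counts in α-IgLON5#1 cortices 49 were Cd3g, so that the sum is not separate from the result for that gene. No test was made of these sums.

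**Figure D2:**
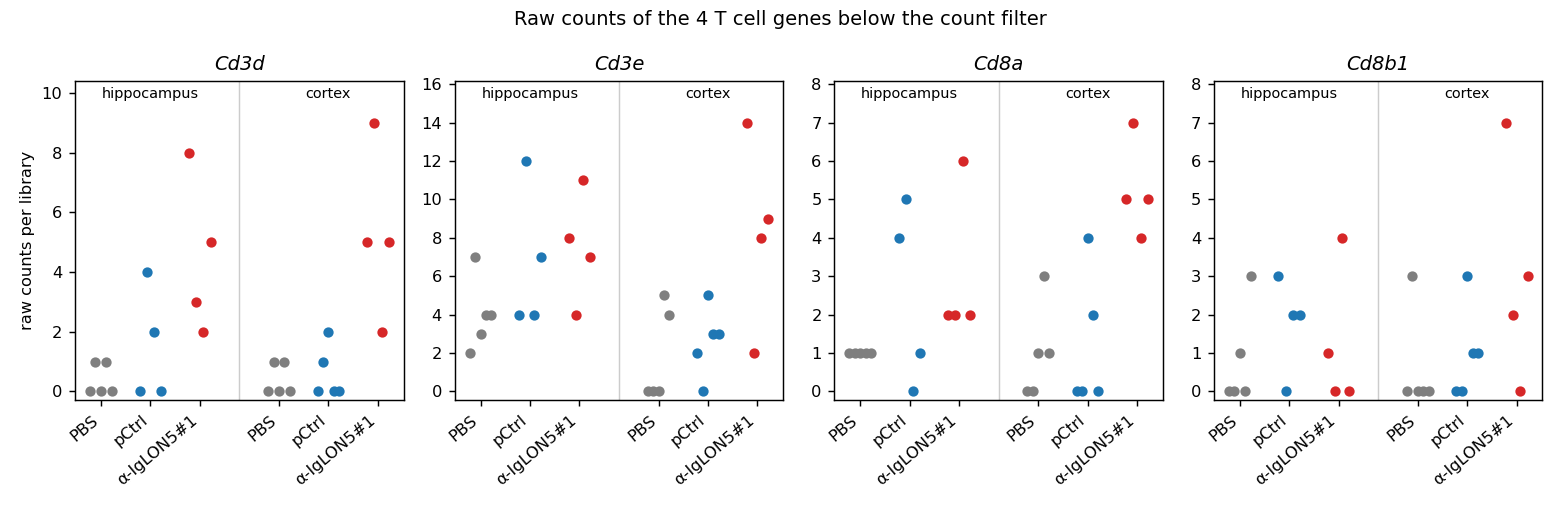
Raw counts per library (linear axis) of the 4 genes that did not reach the count filter, by tissue and infusate, 1 point per library. Cd3d reaches 9 counts with α-IgLON5#1 and at most 1 with PBS, and Cd8b1 stays at 7 counts or fewer.

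The coreceptor gene Cd4 (ENSMUSG00000023274.14, chr6:124864692-124888221, minus strand) rose in the hippocampus. It was 2.31, 0.394, 0.827 and 2.41 CPM (47, 7, 27 and 84 counts) in α-IgLON5#1 mice 8, 9, 16 and 17. The pCtrl hippocampi held 0.490, 0.545, 0.452 and 0.393 CPM (mice 10, 15, 37 and 75) and the PBS hippocampi 0.136 to 0.394 CPM. Mice 8, 16 and 17 were above every control hippocampus, and mouse 9 lay within the pCtrl range. The mean was 1.49 ± 1.03 CPM with α-IgLON5#1, 0.470 ± 0.064 with pCtrl and 0.277 ± 0.113 with PBS, and the log2 fold change was 1.67 ± 0.41 against pCtrl (adjusted p = 0.0128, edgeR) and 2.37 ± 0.41 against PBS (adjusted p = 0.000298). The call against pCtrl was lost without mouse 8 (log2 fold change 1.42, adjusted p = 0.0654, edgeR) or mouse 17 (1.3, 0.0655), and without the pCtrl hippocampi of mice 10 and 37 (1.67, 0.179). It was also lost with only these groups in the fit (1.67, adjusted p = 0.115, edgeR) and among mice 8 to 17 (1.53, 0.335).

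In the cortex Cd4 was 2.39, 0.794, 1.43 and 1.74 CPM in mice 8, 9, 16 and 17, against 0.518 to 1.28 CPM in pCtrl and 0.568 to 1.03 CPM in PBS cortices. Mouse 9 was again the lowest of its group and inside the control range. The differences, 1.07 ± 0.37 from pCtrl and 1.16 ± 0.37 from PBS, did not pass the test (adjusted p = 0.128 and 0.11, edgeR), and that from PBS passed without mouse 9 (1.37, adjusted p = 0.0384). The effect of α-IgLON5#1 on Cd4 did not differ detectably between tissues (hippocampus minus cortex 0.60 ± 0.55 against pCtrl, adjusted p = 0.748, and 1.21 ± 0.55 against PBS, adjusted p = 1, edgeR).

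The CD8 coreceptor genes, 2 neighbours on chromosome 6 (Cd8a, chr6:71373427-71379173, and Cd8b1, chr6:71322788-71337494), were near the limit of detection. Cd8a held 2 to 6 counts in α-IgLON5#1 hippocampi and 4 to 7 in cortices, 0 to 5 and 0 to 4 in the pCtrl tissues, and exactly 1 in each PBS hippocampus. Its pooled ratio to pCtrl was 2.10 in the hippocampus (exact 95% interval 0.832 to 5.43) and 3.27 in the cortex (interval 1.28 to 9.91). Cd8b1 held 5 counts over the α-IgLON5#1 hippocampi and 7 over the pCtrl hippocampi (ratio 1.25, interval 0.313 to 4.58). Over the cortices it held 12 and 5 counts (ratio 2.24, interval 0.736 to 8.13). In the hippocampus the pooled interval of either CD8 gene against pCtrl thus included a ratio of 1. Against PBS the ratio of Cd8a was 4.56 in the hippocampus (interval 1.49 to 16.5) and 4.23 in the cortex (interval 1.55 to 14.4). That of Cd8b1 was 2.37 in the hippocampus (5 against 4 counts, interval 0.511 to 11.96) and 4.03 in the cortex (12 against 3 counts, interval 1.09 to 22.3). These intervals cover counting error only and leave out the spread between mice. In the fit without the count filter, neither CD8 gene was called in any of the 4 comparisons with α-IgLON5#1. The smallest adjusted p was 0.308 (Cd8a, hippocampus against PBS, edgeR).

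Genes of antigen presentation were listed with the coreceptors: MHC molecules, which CD4 and CD8 bind, with their partners B2m and Cd74, and the costimulatory ligands Cd80 and Cd86, which bind CD28. Of the 9 genes, all tested, 5 rose in the hippocampus against pCtrl (median log2 fold change over the 9, 1.36, with 0.00 over all tested genes) and 5 in the cortex (median 1.53, with -0.01 over all). Against PBS 8 of 9 rose in either tissue, and none fell. B2m, the light chain of MHC class I, was 165 ± 33.3 CPM in α-IgLON5#1 hippocampi and 71.3 ± 5.24 in pCtrl (log2 fold change 1.21 ± 0.12, adjusted p = 4.61e-07, edgeR). H2-D1 and H2-K1, its heavy chains, rose by 1.24 ± 0.14 and 1.36 ± 0.19, and the costimulatory ligand Cd86 by 1.22 ± 0.18. Cd74, the invariant chain of MHC class II, rose by 1.96 ± 0.60 (adjusted p = 0.0472, edgeR).

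Lck (ENSMUSG00000000409.14, chr4:129548344-129573641, minus strand), the kinase that phosphorylates the CD3 chains, was detected in every library, with 30 to 119 counts. In the hippocampus it was 2.90, 2.99, 1.53 and 2.06 CPM in α-IgLON5#1 mice 8, 9, 16 and 17, against 1.19 to 2.24 CPM in pCtrl and 1.63 to 2.52 CPM in PBS. In the cortex it was 2.91, 2.45, 1.67 and 1.60 CPM, against 1.26 to 1.60 and 1.28 to 1.73 CPM. Mice 8 and 9 were above all controls of the same tissue, and mice 16 and 17 lay within the control range. The log2 fold change against pCtrl was 0.45 ± 0.22 in the hippocampus (adjusted p = 0.221, edgeR) and 0.65 ± 0.21 in the cortex (adjusted p = 0.0939), and neither passed.

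Of 22 other genes of receptor signalling, 19 were tested. In the hippocampus 7 rose against pCtrl and 7 against PBS, in the cortex 6 and 6, and none fell (median log2 fold change against pCtrl 0.81 and 0.48). Several of the genes that rose are not particular to T cells: Ptprc (CD45) marks all leukocytes, and Fyb, Vav1 and Lcp2 are signalling adaptors and exchange factors of myeloid cells as well. Ptprc was 22.1 ± 4.1 CPM in α-IgLON5#1 and 5.61 ± 0.999 in pCtrl hippocampi (log2 fold change 1.97 ± 0.24, adjusted p = 5.42e-06, edgeR). Fyb rose by 2.28 ± 0.20, Vav1 by 1.75 ± 0.23, Lcp2 by 1.63 ± 0.27 and Rhoh, a GTPase needed for receptor signalling, by 1.18 ± 0.23. Ubash3a, Sit1 and Themis, which act in T cells, did not reach the count filter. Fyn, a kinase related to Lck and the most abundant gene of the list, was 135 ± 11 CPM in α-IgLON5#1 and 125 ± 2.5 in pCtrl hippocampi (log2 fold change 0.11 ± 0.05, adjusted p = 0.226, edgeR).

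The constant region genes tested, Trac and Trbc2, were not called with α-IgLON5#1 in either tissue. Trac (ENSMUSG00000076928.5, chr14:54220521-54224206, plus strand) was 0.984, 1.13, 0.398 and 0.630 CPM in hippocampi of α-IgLON5#1 mice 8, 9, 16 and 17, against 0.214 to 0.677 CPM in pCtrl and 0.400 to 0.653 CPM in PBS. In the cortex it was 0.489, 0.577, 0.405 and 0.394 CPM, against 0.0939 to 0.353 and 0.0631 to 0.325 CPM, so that all α-IgLON5#1 cortices were above all controls (backgrounds as for Cd3g above). The test gave 0.64 ± 0.36 and 0.80 ± 0.38 against pCtrl (adjusted p = 0.311 and 0.314, edgeR), and 0.53 ± 0.34 and 1.17 ± 0.39 against PBS (adjusted p = 0.512 and 0.147).

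Trbc2 (ENSMUSG00000076498.2, chr6:41546730-41548352, plus strand) was set by tissue. In the PBS group it was 5.14, 4.14, 3.83, 3.0 and 3.96 CPM in the cortices of mice 14, 32, 33, 38 and 74, and 0.341, 0.344, 0.264, 0.119 and 0.141 CPM in their hippocampi. The log2 fold change, cortex over hippocampus, was 4.01 ± 0.26 (adjusted p = 1.6e-10, edgeR), and 2.7% of tested genes were higher in PBS cortex and 2.87% lower. Per kilobase of exon the PBS cortex held 5.80 ± 1.11 CPM of Trbc2 and 0.215 ± 0.122 CPM of Trac. Trbc1, the near-identical copy with which Trbc2 could share reads, held 0 to 3 counts in each of these cortices.

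With infusion Trbc2 showed no change that passed. Cortices held 2.74, 4.15, 4.95 and 4.16 CPM with α-IgLON5#1 in mice 8, 9, 16 and 17, and 4.14 to 6.29 CPM with pCtrl (log2 fold change -0.40 ± 0.21, adjusted p = 0.376, edgeR). Hippocampi held 0.315 to 0.689 CPM with α-IgLON5#1 and 0.172 to 0.428 CPM with pCtrl (0.41 ± 0.33, adjusted p = 0.518, edgeR). Mice 10 and 37, the pCtrl hippocampi with the most cortical marker signal, had the highest Trbc2 of their group (0.409 and 0.428 CPM), and without both the difference was 0.77 (adjusted p = 0.536). How much cortical tissue contributes to hippocampal Trbc2 was not tested. Against PBS the difference with α-IgLON5#1 was 0.87 ± 0.34 in the hippocampus (adjusted p = 0.186, edgeR) and -0.0025 ± 0.21 in the cortex (adjusted p = 0.999, edgeR).

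Cd4 and Trac also differed between the tissues of PBS mice, in opposite directions. Cd4 was 0.712 ± 0.204 CPM in cortex and 0.277 ± 0.113 in hippocampus (1.29 ± 0.41, adjusted p = 0.0184, edgeR), and without the cortex of mouse 14 this call was lost. Trac was 0.201 ± 0.114 CPM in cortex and 0.524 ± 0.091 in hippocampus (-1.35 ± 0.37, adjusted p = 0.00673, edgeR). Neither gene overlapped between the tissues, as was so for 9.19% of tested genes higher and 8.61% lower in PBS cortex. Cd3g, Lck and Il2rb did not pass (adjusted p = 0.934, 0.142 and 0.345). In PBS cortex the order of levels per kilobase of exon was Trbc2, Lck (0.506 ± 0.064 CPM), Trac, Cd4 (0.177 ± 0.050) and Il2rb (0.0411 ± 0.0250), with the CD3 and CD8 genes between 0.00673 and 0.0131 CPM. Trac and Cd4 did not differ beyond their spread, nor did the CD3 and CD8 genes among themselves.

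Il2rb (ENSMUSG00000068227.9, chr15:78479256-78495271, minus strand), the interleukin-2 and interleukin-15 receptor chain, was the member that separated the groups most evenly. Hippocampi of α-IgLON5#1 mice 8, 9, 16 and 17 held 2.66, 1.24, 0.889 and 0.802 CPM (54, 22, 29 and 28 counts), and their cortices 2.88, 1.77, 0.548 and 0.717 CPM (106, 49, 23 and 40 counts). Control hippocampi ranged from 0.246 to 0.658 CPM with pCtrl and from 0.205 to 0.469 CPM with PBS. Control cortices ranged from 0.0626 to 0.432 and from 0.0626 to 0.296 CPM. Every α-IgLON5#1 library was above every control of its tissue, as were 6.68% of tested genes in hippocampus against pCtrl and 4.49% against PBS.

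Il2rb rose in all 4 comparisons. The log2 fold change was 1.75 ± 0.50 against pCtrl (adjusted p = 0.0319, edgeR) and 2.12 ± 0.49 against PBS (adjusted p = 0.00761) in the hippocampus. In the cortex it was 2.68 ± 0.51 (adjusted p = 0.00177) and 3.01 ± 0.52 (adjusted p = 0.000489). The effects in the 2 tissues did not differ detectably (hippocampus minus cortex -0.93 ± 0.72 against pCtrl, adjusted p = 0.692, edgeR). The hippocampal call against pCtrl rests on few libraries: it was lost without pCtrl mouse 10, 37 or 75 or α-IgLON5#1 mouse 8 or 9 (adjusted p = 0.0674 to 0.19, edgeR), and without pCtrl mice 10 and 37 together (1.55, adjusted p = 0.352). It was lost too with only these groups in the fit (1.75, adjusted p = 0.0911, edgeR) and among mice 8 to 17 (1.34, 0.441), as was the cortical call among mice 8 to 17 (3.28, 0.0977). Against PBS it was lost without mouse 8 (1.61, adjusted p = 0.0946).

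**Figure D3:**
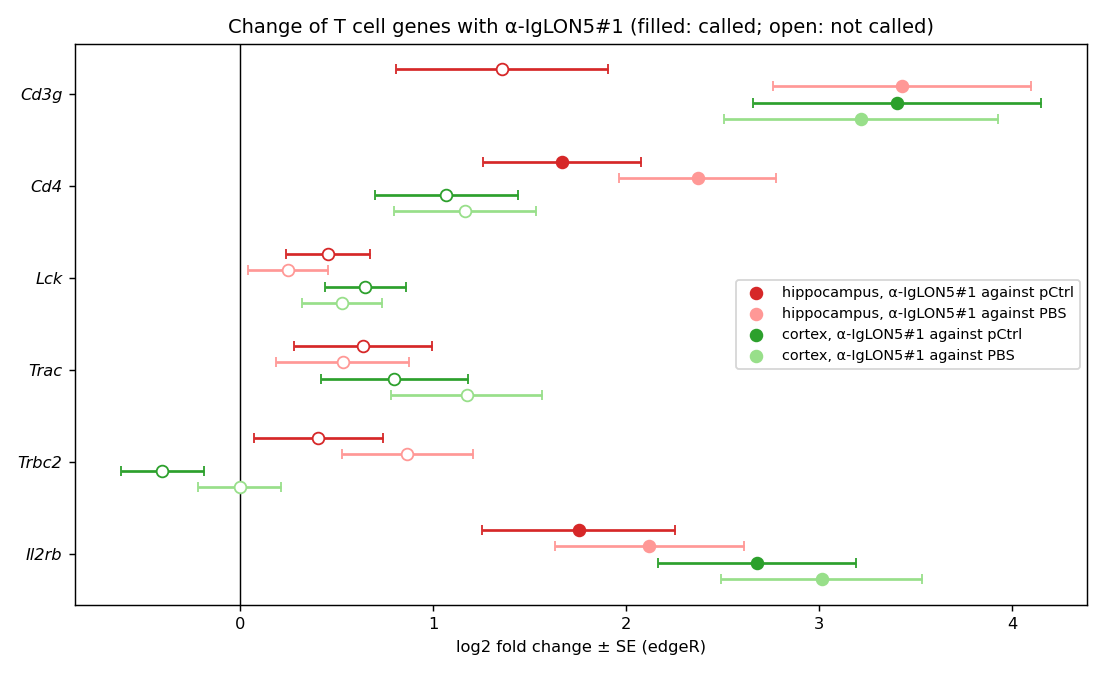
Log2 fold change ± SE of the 6 tested genes for α-IgLON5#1 against pCtrl and PBS in each tissue, with filled points for genes that passed the test and open points for those that did not. Il2rb is filled in all 4 comparisons, Cd3g in 3 and Cd4 in both hippocampal ones, whereas Lck, Trac and Trbc2 are open throughout.

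Il2rb acts together with the common γ chain Il2rg, and 2 of 10 tested partners rose in each tissue against pCtrl (median log2 fold change 0.35 in the hippocampus and 0.57 in the cortex), against PBS 2 and 1, with none lower. Il2rg was 2.07 ± 0.79 CPM in α-IgLON5#1 and 0.293 ± 0.027 in pCtrl hippocampi (2.79 ± 0.37, adjusted p = 1.86e-05, edgeR), and 1.97 ± 1.29 and 0.267 ± 0.117 CPM in the cortices (2.85 ± 0.36, adjusted p = 2.14e-05). Il21r, the interleukin-21 receptor chain that also pairs with it, rose by 1.32 ± 0.15 in the hippocampus. Jak1, the kinase bound to Il2rb, stayed at 212 ± 12 and 202 ± 5 CPM (0.07 ± 0.05, adjusted p = 0.478, edgeR).

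NK cells also carry Il2rb and Lck. None of 8 NK markers reached the count filter, so they are given as sums without a test. Their summed level was 0.563 to 1.67 CPM in α-IgLON5#1 hippocampi, against 0.0737 to 0.190 CPM in pCtrl and 0.0293 to 0.180 CPM in PBS. In the cortices it was 0.286 to 2.99 CPM, against 0.0532 to 0.259 and 0.0672 to 0.221 CPM. All 8 markers had counts in at least 1 α-IgLON5#1 library of each tissue. Klra4 and Klra7 were at 0 in every PBS hippocampus and Klra4 and Klra8 in every pCtrl hippocampus. In the cortices Klra4, Klra7 and Klra8 were at 0 in every PBS library, but only Klrc2 in every pCtrl library. Within the α-IgLON5#1 cortices the NK sums of mice 8, 9, 17 and 16 (2.99, 1.34, 0.430 and 0.286 CPM) followed the order of Il2rb. In the hippocampi mouse 8 was again highest for both, but mouse 9, second for Il2rb, had the lowest NK sum (0.563 CPM). The part of NK cells in the rise of Il2rb was not tested.

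Some markers of other leukocytes rose as well. B cell markers summed to 1.97 to 8.61 CPM in α-IgLON5#1 and 0.952 to 1.3 CPM in pCtrl hippocampi, and 4 of 6 tested rose. Plasma cell markers summed to 8.56 to 89.7 CPM and 4.08 to 5.38 CPM (1 of 5 rose), and microglia and macrophage markers to 342 to 600 and 246 to 279 CPM (3 of 8 rose). Dendritic cell markers summed to 41.9 to 50.3 and 34.1 to 40.9 CPM (1 of 8 rose). In cortices, against pCtrl, 2 of 6, 1 of 5, 3 of 8 and 2 of 8 rose in the same order. Of all tested genes, 2.21% rose in hippocampus and 2.14% in cortex against pCtrl. Whether a marker reached the count filter only through α-IgLON5#1 libraries was not examined, so that these counts are descriptions only. No marker of neutrophils (4 tested), erythrocytes (5), choroid plexus (5), neurons (5), astrocytes (3) or oligodendrocytes (3) rose or fell in any of the 4 comparisons with α-IgLON5#1. The summed neutrophil markers of mouse 8, whose hippocampus several calls depend on, stood apart all the same: 12.6 CPM in cortex and 7.48 in hippocampus, against at most 3.79 and 4.71 CPM in the controls and 2.03 and 2.35 CPM in the other α-IgLON5#1 mice. Its part in the calls was not tested. Of 5 cortical markers 1 fell in the hippocampus against pCtrl, and no hippocampal marker passed. The erythrocyte sum, a measure of blood left in the tissue, was 2.27 to 5.22 CPM in α-IgLON5#1 and 4.22 to 6.42 CPM in pCtrl hippocampi.

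The order of the α-IgLON5#1 mice differed between the members. Mouse 8 was highest for Il2rb in both tissues and mouse 9 next. Lck and Trac were also highest in mice 8 and 9 in both tissues. Cd4 was highest in mice 8 and 17 and lowest in mouse 9 in both tissues. Mouse 9 also had the lowest sums of B cell markers (1.97 and 1.59 CPM in hippocampus and cortex) and plasma cell markers (8.56 and 8.95 CPM) and the highest sums of microglia and macrophage markers (600 and 393 CPM). With 4 mice, this is a description.

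**Figure D4:**
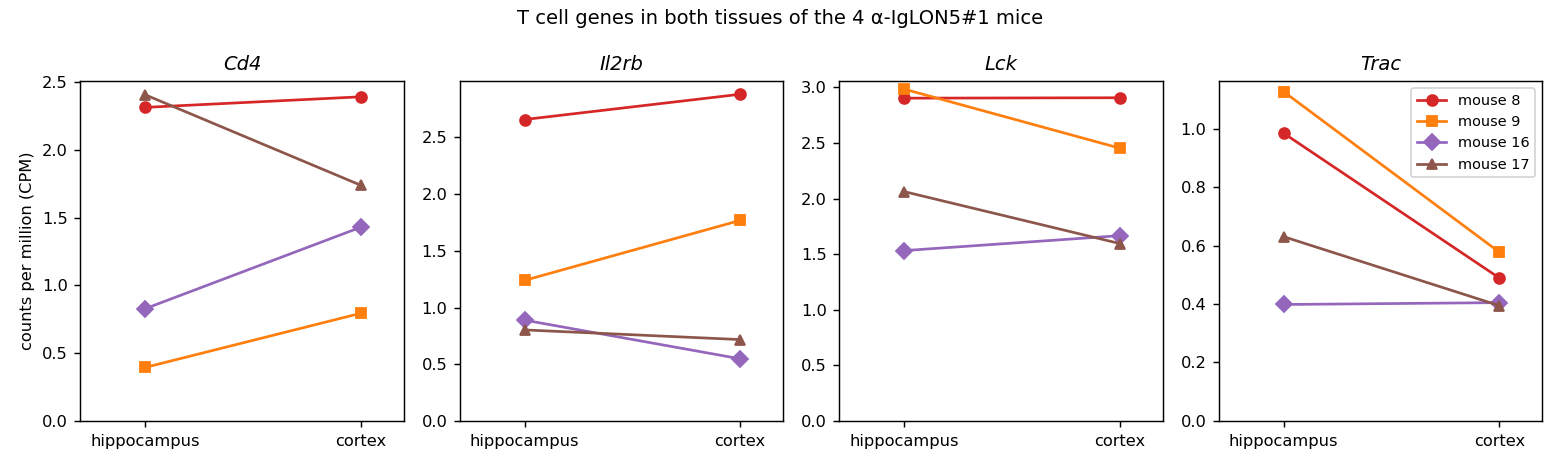
Level in CPM (linear axes from 0) of Cd4, Il2rb, Lck and Trac in the hippocampus and cortex of the 4 α-IgLON5#1 mice, each line joining the tissues of 1 mouse. Mouse 9 is lowest for Cd4 in both tissues, at 0.394 and 0.794 CPM, but among the highest 2 for Il2rb, Lck and Trac.

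Lists of other T cell functions are given as counts, with the genes named by size of adjusted p. Like Cd3g, some listed genes reached the count filter only through the α-IgLON5#1 libraries, having fewer than 4 control libraries with 10 counts, so that the counts and medians of the lists are descriptions only. Among the 28 listed genes called in hippocampus against pCtrl these were Icos, Cd5, Pdcd1, Runx3, Ikzf3, Ccl5 and Cd69, and all 7 were also called in the fit without the filter (adjusted p from 0.000596 to 0.0447, edgeR). Ctsw was not called without the filter (adjusted p = 0.098, edgeR). Of 20 genes of costimulation and adhesion, 15 were tested and 5 rose in the hippocampus against pCtrl (3 in the cortex), against PBS 5 and 3, and none fell (median 0.70 and 0.63 against pCtrl). They include Icos, a costimulatory receptor of activated T cells (0.703 ± 0.108 against 0.146 ± 0.105 CPM; 2.22 ± 0.44, adjusted p = 0.0023, edgeR). Slamf6 rose by 1.95 ± 0.39, the inhibitory receptor Pdcd1 by 2.63 ± 0.64, Cd5 by 2.16 ± 0.49 and Lag3, which microglia can also express, by 1.60 ± 0.21. Thy1, a T cell antigen that neurons make in large amounts, was 568 ± 26 and 607 ± 14 CPM (-0.10 ± 0.07, adjusted p = 0.448, edgeR).

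Of 12 cytotoxic effector genes, 6 were tested. In the hippocampus 3 rose against pCtrl and 5 against PBS, in the cortex 4 and 4, and none fell (median 1.68 and 2.10 against pCtrl). Ccl5, a chemokine of activated T and NK cells, was 3.16 ± 2.43 CPM against 0.226 ± 0.193 (3.70 ± 0.73, adjusted p = 0.002, edgeR). Cst7, a cystatin also made by reactive microglia, rose by 2.77 ± 0.46 and Ctsw, a lymphocyte cathepsin, by 1.04 ± 0.32. Gzma, Gzmb, Prf1, Nkg7, Fasl and Ifng, the core of killing and of the type 1 response, did not reach the count filter. Of 12 transcription factors, 10 were tested and 2 rose in each of the 4 comparisons, Runx3 and Ikzf3 in the hippocampus against pCtrl (2.54 ± 0.77 and 2.42 ± 0.64), with none lower and medians of 0.10 and 0.18 against pCtrl. Bcl11b, which neurons also express, was 162 ± 21 and 157 ± 32 CPM (0.05 ± 0.14, adjusted p = 0.872, edgeR).

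Of 14 genes of homing and residence, 4 rose in the hippocampus and 9 in the cortex against pCtrl, and 9 and 8 against PBS, with none lower (median 1.57 and 2.37 against pCtrl). The integrin Itgal rose by 1.97 ± 0.41 and the early activation marker Cd69 by 4.85 ± 1.02 in the hippocampus. Of the chemokines that attract T cells, Cxcl16 was 10.7 ± 3.5 CPM against 2.17 ± 0.46 (2.29 ± 0.35, adjusted p = 0.000111, edgeR), and Cxcl10 1.29 to 86.5 CPM against 0.167 to 1.49 CPM (4.91 ± 1.21, adjusted p = 0.0137). S1pr1, the sphingosine-1-phosphate receptor with which lymphocytes leave tissue and which astrocytes and endothelium also express, was 144 ± 12 and 159 ± 5 CPM (-0.14 ± 0.08, adjusted p = 0.34, edgeR).

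For pCtrl against PBS, no tested member was called. These were 0 of 6 in the hippocampus, where 0.0493% of all tested genes rose and 0.0148% fell, and 0 of 6 in the cortex, where 0% of genes did (edgeR). At an unadjusted p under 0.05 there was 1 member in the hippocampus (Cd3g, 2.07 ± 0.71, adjusted p = 0.158, with a pooled count ratio of 4.65 and an exact 95% interval of 2.0 to 12.5, 21 of its 30 pCtrl counts being from mouse 15) and 0 in the cortex, where 14% and 8.14% of all tested genes were under that p, and DESeq2 called 0 in each. The interaction of tissue and antibody was called for 0 of 6 against pCtrl (0% of all tested genes) and 0 of 6 against PBS (0.00493%), with 1 and 2 members at an unadjusted p under 0.05 (Cd3g, then Cd4 and Trbc2), a p that 10.6% and 3.32% of all tested genes reached, and 0 by DESeq2.

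The genes outside the set whose profile over the 27 libraries was closest to the mean profile of the 6 tested members, by root mean square distance of centred log2 CPM, were Clec5a (0.351), Plek (0.361), Themis2 (0.363), Tnfrsf1b (0.379) and B2m (0.381). Their log2 fold changes in hippocampus against pCtrl lay between 1.13 and 1.58. The members themselves were farther from their own mean, at 0.578 for Cd4, 0.588 for Lck, 0.846 for Trac, 0.863 for Il2rb, 0.906 for Cd3g and 1.81 for Trbc2.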

How the data were processed

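RNA was measured in bulk tissue with stranded poly(A) libraries sequenced paired-end. The authors deposited 1 table of raw, unnormalized read counts. Per the study's methods and labels, reads were aligned with STAR to GRCm38. The counting program, its strand setting and the annotation release are not given in the sources used here, and symbols and positions were taken from GENCODE M21. All columns were assigned to samples by name (0 unassigned).

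The model was edgeR's quasi-likelihood test (version 4.0.16 under R 4.3.3, TMM, glmQLFit and glmQLFTest), with a mean for each of the 6 groups and nothing else, over the 20271 genes for which 4 or more libraries held 10 or more counts. CPM were scaled to the TMM effective library size. P-values were adjusted (Benjamini-Hochberg) over all tested genes, and a call needed an adjusted p under 0.05 and a fold above 2 (for interactions the adjusted p alone). The count filter and the thresholds are those of the study, which used DESeq2 with hypothesis weighting of p-values and shrunken fold changes, neither of which was applied here. SEs were derived from the F statistic. Intervals of pooled ratios are exact (binomial, 95%). Counts were pooled over mice, so that these intervals cover counting error only and not the spread between mice. The reads carry no molecular identifiers, so that even counting error may be understated.

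The 10 genes, 8 lists of related genes and 13 lists of markers were chosen with earlier results of these data known. All members are named, and from each list of related genes up to 5 genes called in hippocampus against pCtrl by smallest adjusted p plus the tested gene with the highest mean CPM. Genes below the count filter are named besides, after their values were seen. Ccl19 and Ccl21a each match 2 rows and were left out. The 48 pairs of libraries within groups all differed by more than sampling noise (smallest chi-square per degree of freedom 4.54).

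Alternatives were DESeq2 1.42.0, RLE size factors, no fold threshold, no or a stricter count filter, only the groups compared, only mice 8 to 17, each library left out, and the mouse as a block. The one without pCtrl hippocampi 10 and 37 was chosen after seeing the data. The mouse number marks both tissues of 1 mouse. Deviations from group means correlated between its tissues with a median r of 0.192 over 13 mice (-0.0518 to 0.459, 8 above 0.1). The statistical steps were tested on simulated data.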

Additional observations from a re-analysis of the deposited data

Results flagged for a closer look

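Of 60 combinations of gene and group, 2 had a library far from the others, where chance alone gives about 1 in 20. Cd3g in the pCtrl hippocampus of mouse 15 was 0.395 CPM (21 counts), against at most 0.102 CPM in the other pCtrl hippocampi. The same library held 12 counts of Cd3e and 4 of Cd3d, the most of its group. Without it the difference of Cd3g from pCtrl was 2.52 (adjusted p = 0.00765, edgeR), but Cd3g then had 10 counts in 3 libraries, all α-IgLON5#1, which is below the count filter. Cd8b1 in the PBS cortex of mouse 32 was 0.0887 CPM, which is 3 counts against 0 in the other PBS cortices.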

How the results depend on the processing

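The depth limits what can be seen of the rarest genes: a library held at most 9 counts of Cd3d and 7 of Cd8a or Cd8b1. With at least 10 counts required in every library, Lck was the only member tested and 0 members were called in each of the 4 comparisons with α-IgLON5#1 and between PBS tissues. In hippocampus against pCtrl, 0 members were called with only the groups compared in the fit (Cd4 adjusted p = 0.115, Il2rb 0.0911), with only mice 8 to 17 (0.335 and 0.441; 2 pCtrl hippocampi) and without pCtrl mice 10 and 37, a choice made after seeing the data (0.179 and 0.352). In cortex against pCtrl, 0 were called with only mice 8 to 17 (Cd3g 3.67, adjusted p = 0.133; Il2rb 3.28, adjusted p = 0.0977). The cause was not tested, but the last settings hold fewer samples. Leaving out single libraries gave 0 to 3 calls in hippocampus against pCtrl (0 without α-IgLON5#1 mouse 8, 3 without pCtrl mouse 15, also with no count filter), 2 to 3 in hippocampus against PBS, 2 in cortex against pCtrl, 2 to 3 in cortex against PBS and 2 to 3 between PBS tissues. The genes tested were kept fixed, although Cd3g, the third call without mouse 15, passes the count filter with 4 libraries and would fail it without any of them (pCtrl hippocampus 15, α-IgLON5#1 hippocampus 17 and cortices 8 and 16). DESeq2, RLE size factors and no fold threshold gave the same number of calls in each comparison, and without a count filter hippocampus against PBS gave 4. With the replicate block, which pairs the tissues of a mouse, 0 members were called for either interaction and 3 between PBS tissues, the same numbers as without it; within a tissue no pairs exist.

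Of the values of single genes under these settings, 507 kept their direction and side of the threshold, 16 lost the call, 3 gained it and 14 changed sign, the last all with an adjusted p of at least 0.906. Trbc2 in cortex against PBS (-0.00252) became 0.000437 with DESeq2, 0.0212 without count filter, 0.0150 with only the groups compared, 0.107 without PBS mouse 14, 0.00894 without PBS mouse 32 and 0.140 without α-IgLON5#1 mouse 8, and leaving out single libraries gave -0.122 to 0.140. For pCtrl against PBS, Cd3g in cortex (-0.19) became 0.680 without PBS mouse 14 and 0.223 without pCtrl mouse 15 (range over single libraries -0.751 to 0.680), Cd4 in cortex (0.09) became -0.111 without pCtrl mouse 11 (range -0.111 to 0.263), and Il2rb in cortex (0.33) became -0.0430 without pCtrl mouse 75 (range -0.0430 to 0.603). Il2rb in hippocampus (0.37) became -0.00891 without pCtrl mouse 15 (range -0.00891 to 0.544), and Trac in hippocampus (-0.11) became 0.129 without pCtrl mouse 37 (range -0.326 to 0.129). Without pCtrl mice 10 and 37, Lck (-0.20) became 0.0778 and Trac 0.176.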

Other observations

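The variable genes of the T cell receptor, 144 genes summed because each is rare, held 0.624 ± 0.329 CPM in α-IgLON5#1 (n = 4), 0.523 ± 0.149 in pCtrl (n = 4) and 0.361 ± 0.091 CPM in PBS hippocampi (n = 5), and the ranges overlapped. In cortices the sums were 0.615 ± 0.190, 0.455 ± 0.110 and 0.505 ± 0.125 CPM. Trbc1, the second β chain constant gene, held 5 to 11 counts in each α-IgLON5#1 cortex and at most 3 in each control cortex. In CPM the α-IgLON5#1 cortices (0.0897 to 0.325) overlapped the PBS cortices (0 to 0.0946), and pCtrl cortices held 0 to 0.0702. In the hippocampus the groups overlapped: mice 8, 9, 16 and 17 held 6, 0, 6 and 8 counts (0 to 0.295 CPM) and pCtrl mice 10, 15, 37 and 75 held 2, 8, 1 and 2 (0.0238 to 0.150 CPM). Trbc1 did not show the excess of Trbc2 in cortex over hippocampus: PBS cortices held 0.0374 ± 0.0411 and PBS hippocampi 0.0278 ± 0.0220 CPM. Of the 5 other receptor constant genes, Trdc, the δ chain of the γδ receptor, was the only one tested, and it was not called in any comparison of infusates (hippocampus against pCtrl 0.39 ± 0.61, adjusted p = 0.762, edgeR).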
